A study of Mus musculus with 29 samples.

Results

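The replication-dependent histone genes encode the bulk of the H1, H2A, H2B, H3 and H4 proteins on which DNA is wound. They were measured here in male mouse liver and liver adenoma after developmental exposure to tributyltin (TBT), an organotin compound given to dams in their drinking water during gestation and lactation. The genes were taken as the rows of the deposited count table whose mouse symbol begins with Hist1h, Hist2h, Hist3h or Hist4h and whose counts over all 29 libraries summed to at least 30. This rule matched 67 of 22028 rows by symbol and kept 56, of which 5 encode H1, 14 H2A, 14 H2B, 10 H3 and 13 H4. The genes were thus chosen by symbol and by summed raw count over all libraries, and those sums are given as a description only. The gene with the lowest sum kept was Hist1h2ap with 31 counts, and the next below was Hist1h2bp with 28 counts.

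The libraries fell into 5 groups by treatment, age and tissue label, all from males, with no strain named in the labels. Liver of animals labelled VEH was sampled at 5 months (6 libraries) and 10 months (6 libraries), and liver of animals labelled TBT at 5 months (5 libraries) and 10 months (5 libraries). The adenomas (7 libraries, 10 months) all carry the TBT label, so against VEH liver tumour and exposure cannot be told apart, and no label ties an adenoma to a liver. The kit for library preparation was stranded and took total RNA, with no selection for poly(A) tails. They held 7513448 to 33704303 counts each. Nothing in the labels says that the libraries of a group are from separate animals, so the p-values measure the spread between libraries. Hepatocyte markers, summed over 10 genes, ranged from 65092 to 188568 CPM over all libraries (CPM, counts scaled to library size).

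As background, most of these genes are transcribed when DNA is copied in S phase, and their mRNAs are made without introns and without a poly(A) tail. The mRNA instead ends a few bases after a short stem-loop, which is bound by the stem-loop binding protein (Slbp), and is cut there by a complex that contains the U7 small nuclear RNP with its proteins Lsm10, Lsm11 and Zfp473. Transcription takes place in the histone locus body, of which Npat and Casp8ap2 are parts. Adult liver cells divide rarely, and replication-independent genes such as H3f3a, H3f3b, H2afz and H1f0 supply histones outside S phase.

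The 3′ stem-loop is the element that marks this mRNA class. Annotated GENCODE M21 transcripts (GRCm38) of 39 of the 56 genes held its 16 letters, searched on the transcript strand as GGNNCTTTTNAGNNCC with a perfectly paired 6-base stem. Over all 21901 coding genes, 0.224% held them, and 5 of these were not among the matched histone rows. A histone gene without a match is not shown to lack the element, as its annotated transcript may end before it or its letters may differ. Hist1h4k and Hist1h2bn, for example, had no match and were annotated with 312 and 381 bases. There were 6 distinct sequences among the 39 genes, given below 5′ to 3′ with the 4-base loop in capitals. The form on the second line was carried by H4 genes alone and the form on the first by H1, H2A, H2B and H3 genes.
Hist1h1c, with 22 genes of this form: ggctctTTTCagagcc
Hist1h4h, with 7 genes of this form: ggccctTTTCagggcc
Hist1h3e, with 5 genes of this form: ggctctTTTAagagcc
Hist2h4, with 2 genes of this form: ggccctTTTTagggcc
Hist1h4j, with 2 genes of this form: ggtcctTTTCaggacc
Hist2h2ac, with 1 gene of this form: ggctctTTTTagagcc

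A RefSeq promoter (GRCm38.p6) was assigned to 51 of the 56 genes. In the 250 bases before the start, the letters CCAAT were found on either strand in 80.4% of these genes and in 34.5% of all 27025 promoters of the table. They stood in the promoters assigned to all 5 H1, all 14 H2A and all 12 H2B genes but to 3 of 12 H4 genes. Many H2A and H2B genes start back to back, so their searched windows overlap and the same site can count for both genes of a pair. The H2A and H2B counts here, for each motif, are therefore not counts of separate sites. Hist1h2ao and Hist1h2ap were assigned the same promoter, which lies before Hist1h2ao. It is counted for both in every H2A count and share here, and the promoter of Hist1h2ap itself was not examined. TATAAA, on either strand, was in 49.0% against 13%. The octamer ATTTGCAT was in 19.6% against 1.61%, in 6 of 14 H2A and 4 of 12 H2B promoters and in none of the H1, H3 or H4 promoters. A match is only a description of the letters. The 150 bases before the start are shown for an H1 and an H2B gene with large differences in adenoma and for the H1 gene with the most counts, with these motifs in capitals.
Hist1h1b, chr13:21780626-21780775, minus strand: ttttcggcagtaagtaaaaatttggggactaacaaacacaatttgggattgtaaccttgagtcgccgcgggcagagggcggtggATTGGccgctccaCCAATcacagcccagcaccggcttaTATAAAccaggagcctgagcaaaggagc
Hist1h2bm, chr13:21721894-21722043, plus strand: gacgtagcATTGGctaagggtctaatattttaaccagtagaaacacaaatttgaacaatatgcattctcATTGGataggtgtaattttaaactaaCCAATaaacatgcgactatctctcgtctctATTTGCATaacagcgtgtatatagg
Hist1h1c, chr13:23738657-23738806, plus strand: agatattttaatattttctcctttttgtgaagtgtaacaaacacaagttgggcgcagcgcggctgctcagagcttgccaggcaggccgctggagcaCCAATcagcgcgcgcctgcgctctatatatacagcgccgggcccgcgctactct

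Chromosome 13 held 48 of the 56 genes, chromosome 3 held 5, chromosome 11 held 2 and chromosome 6 held 1. On chromosome 13 they stood in a block of 20 genes between 21715763 and 22043676 and another of 28 genes between 23531050 and 23764406 (GRCm38). Many are near copies. In 27 of the 56 genes, fewer than 50% of the 50-base windows of the annotated transcripts occurred in no other gene, so counts of single copies are uncertain. Of the matched rows, 6 had 0 counts in all libraries, and in 5 of these (Hist2h2aa1, Hist2h2aa2, Hist2h2bb, Hist2h3b and Hist2h3c1) 0% of such windows were unique. Hist1h1e and Hist1h2be overlap on the same strand, as do Hist3h2a and Trim17, so their counts could not be assigned to one gene with certainty.

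A few genes dominated the family: in each library, its 5 leading genes held 55.4 to 81.4% of the summed histone level. Hist1h1c and Hist1h2bc held 39.8% of the 351436 counts of the 56 genes over all libraries, and the 6 genes with the most counts held 74.3%. Per length (mean over all libraries of CPM per kilobase of annotated exon, RPKM), Hist1h4h stood first at 85.4 RPKM, followed by the linker histone Hist1h1c at 77.5 RPKM and Hist1h2bc at 74.1 RPKM. Hist1h1e followed at 39.3 RPKM, Hist1h4d at 35.0 RPKM and Hist1h4c at 28.6 RPKM. The highest H3 gene, Hist1h3e, reached 12.2 RPKM, and the highest H2A gene, Hist2h2ac, 8.12 RPKM. These 6 leading genes all averaged 20 CPM or more, and the other 50 were below that. The order per length depends on the annotated ends. The annotated transcript ran 840 of 1560 bases past the stem-loop in Hist1h1c and 46 of 470 in Hist1h4h. Levels per length up to the stem-loop were not computed.

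The first question the design poses is how the adenomas differ from liver of the same age. In adenoma, the summed level of the 10 H3 genes ranged from 18.5 to 73.5 CPM with a median of 43.0 CPM. In VEH liver at 10 months it ranged from 13.98 to 20.7 CPM (median 15.98 CPM), and in TBT liver the 5 libraries had 18.4, 21.9, 12.6, 15.8 and 19.5 CPM. For H3 and H2A, 6 of 7 adenomas lay above every liver library of 10 months, and adenoma replicate 7 lay within the liver range. The mean of the summed level was 2.64 times that of VEH liver for H3 (43.5 ± 16.3 against 16.5 ± 2.25 CPM, SD, n = 7 and 6) and 2.15 times for H2A (16.7 ± 5.22 against 7.75 ± 1.10 CPM). It was 1.34 times for H1 (248.9 ± 46.6 against 186 ± 20.3 CPM), 1.18 times for H4 (144 ± 30.1 against 122 ± 4.08 CPM) and 1.05 times for H2B (114 ± 27.0 against 108 ± 8.24 CPM). For H1, H4 and H2B the adenomas overlapped VEH liver, with 5, 4 and 3 of 7 above every VEH library.

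**Figure D1:**
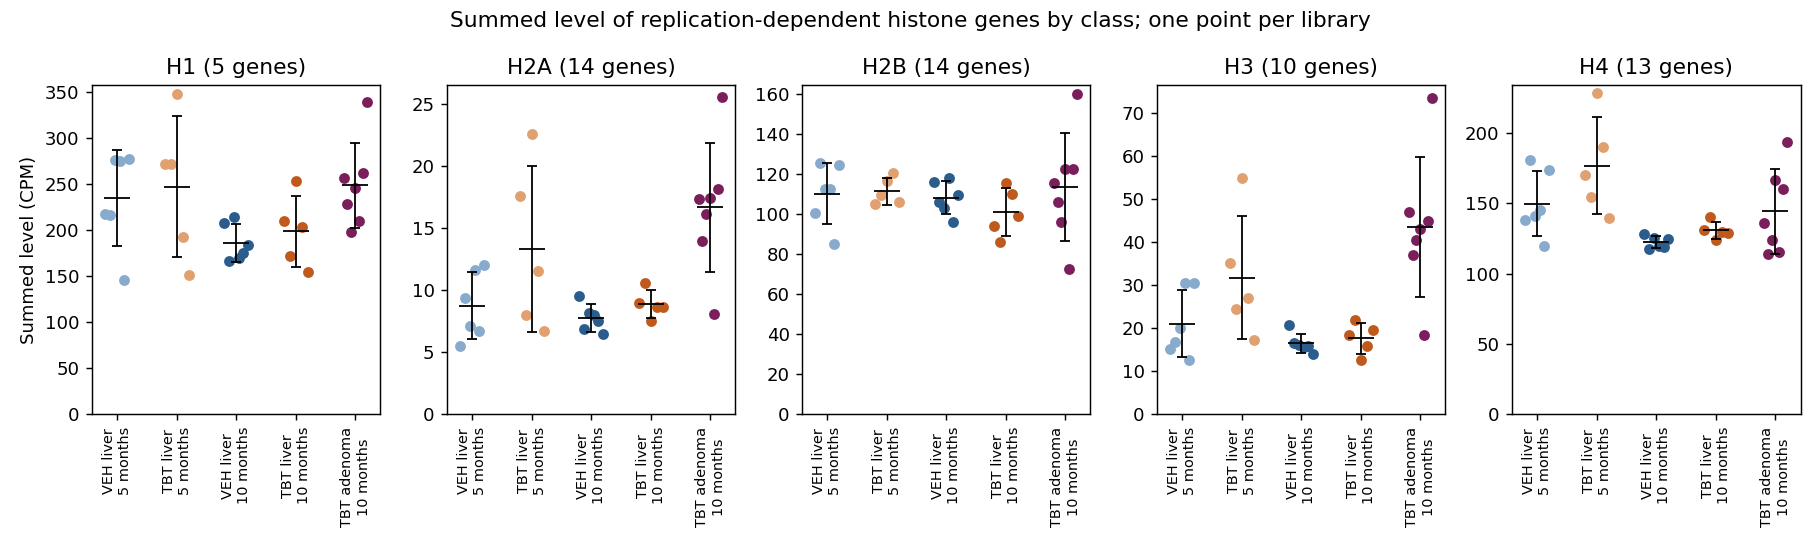
Summed level (CPM) of the genes of each histone class in each library (points), by group, with the group mean and SD in black. H3 and H2A sums of 6 adenomas stand above all liver libraries of 10 months, while H2B sums overlap between all groups.

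Adenoma replicate 7 and, to the other side, replicate 12 stood apart from the other adenomas. The summed level of 24 mitosis genes was 28.4 CPM in adenoma 7, inside the 12.3 to 42.0 CPM of VEH liver at 10 months, and ranged from 150 to 354 CPM in the other 6. All 56 histone genes summed to 424 CPM in adenoma 7, the lowest of the group, and to 792 CPM in adenoma 12, the highest. Without adenoma 7, the mean summed level was 2.89 times that of VEH liver for H3, 2.34 times for H2A, 1.37 times for H1, 1.22 times for H4 and 1.11 times for H2B.

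Gene by gene, 49 of the 56 passed the filter on low counts, and 39 of them rose in adenoma against VEH liver at an adjusted p under 0.05 (edgeR quasi-likelihood test with Benjamini-Hochberg adjustment over 13474 genes). Of all genes tested, 27.9% were called higher and 24.8% lower, 52.6% in all. Among the histone genes, 2 fell (Hist1h2bc and Hist1h4h) and 8 were not called. The median log2 fold change of the 49 was 1.53, against 0.006 over all genes. The filter bears on this count: 8 of the 49 passed it only with the adenoma libraries, and all 8 were called higher. Among the 41 that pass on liver libraries alone, 31 were called higher, 2 lower and 8 not called, with a median of 1.36. The genes admitted through the adenomas had to differ, so the counts by class, level and position below are also given without them. They are Hist1h2ag, Hist1h2ai, Hist1h2ak, Hist1h2bk, Hist1h2bl, Hist1h2bq, Hist1h3d and Hist1h3g. Of the 39, 20 were among the genes with fewer than 50% unique windows. Without adenoma 7 the test called 40 higher and 2 lower.

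**Figure D2:**
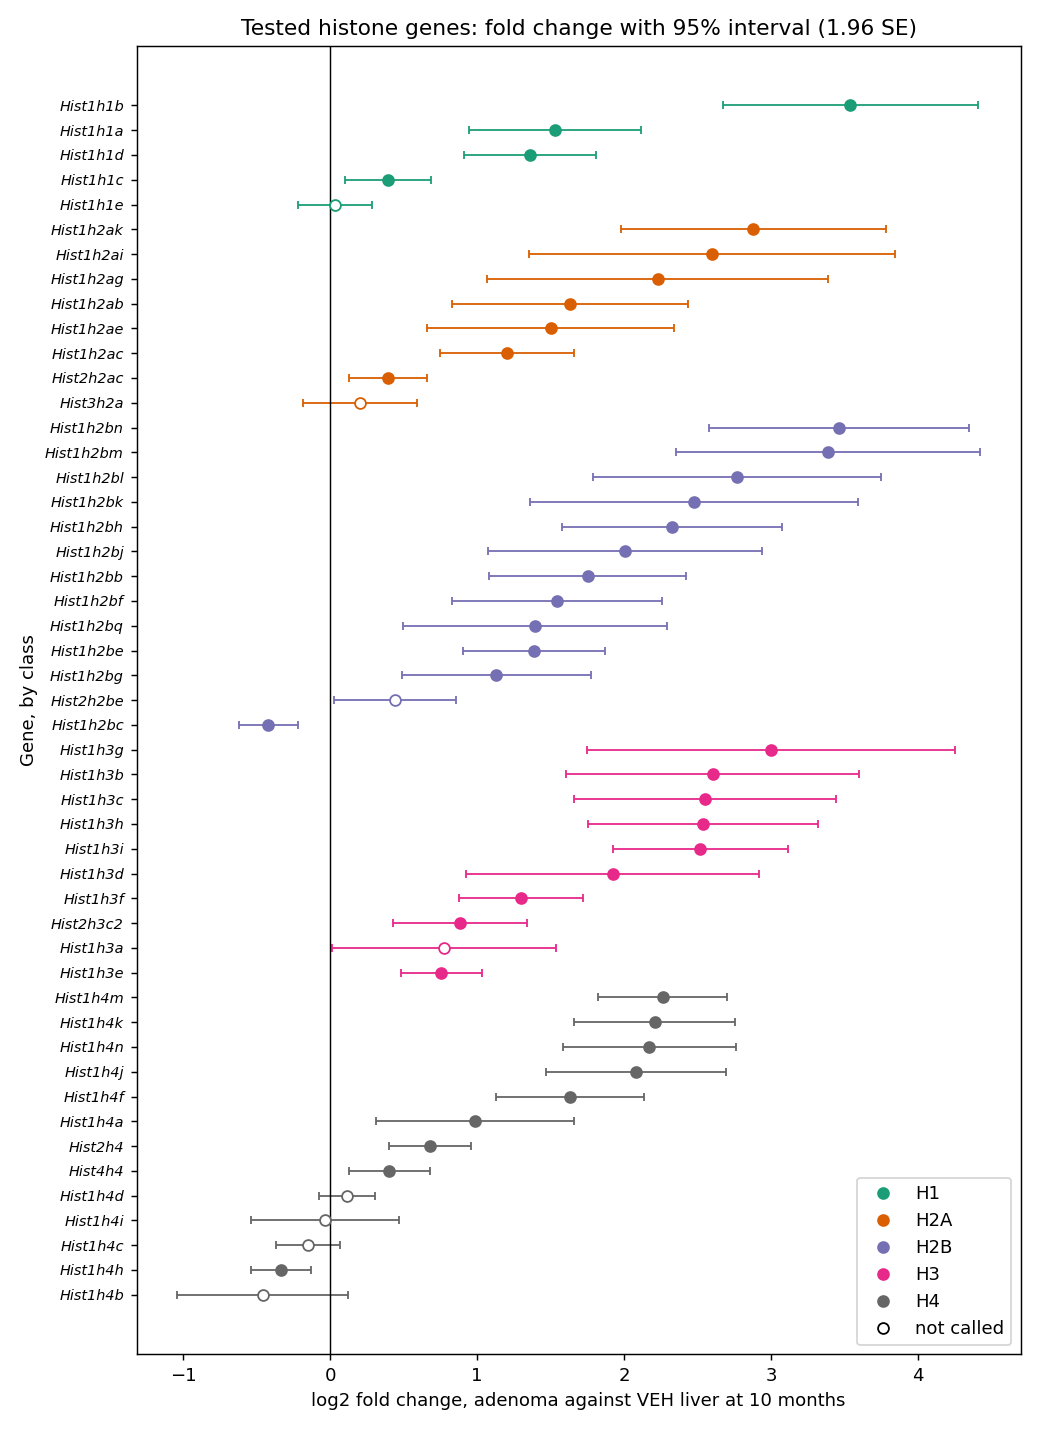
Log2 fold change in adenoma against VEH liver at 10 months for the 49 tested histone genes, by class, with 95% intervals from the standard error (filled, adjusted p under 0.05; open, not called). Most genes of each class lie to the right of 0, while Hist1h2bc and Hist1h4h lie to the left.

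The linker histones, which bind DNA between nucleosomes, rose in 4 of 5 cases. Hist1h1b, encoding H1.5, ranged from 1.07 to 15.4 CPM in adenoma (median 8.11 CPM) and from 0.403 to 1.20 CPM in VEH liver (median 0.616 CPM). It had 0.270, 0.801, 0.589, 0.793 and 0.866 CPM in the TBT livers of 10 months. Only adenoma 7 reached down into the VEH liver range, and no adenoma reached that of TBT liver. Against VEH liver it rose by 3.54 on the log2 scale (edgeR, SE 0.44, adjusted p 5.63e-06), the largest difference of the family, and against TBT liver by 3.59 (SE 0.48, adjusted p 2.07e-05, edgeR). Hist1h1d and Hist1h1a, encoding H1.3 and H1.1, rose by 1.36 (SE 0.23) and 1.53 (SE 0.30) on the log2 scale. The abundant Hist1h1c, encoding H1.2, ranged from 100 to 183 CPM in adenoma (median 129 CPM) and from 86.8 to 110 CPM in VEH liver (median 101 CPM), and rose by 0.39 (SE 0.15, adjusted p 0.0325, edgeR). This call was lost, with an adjusted p of 0.0523 to 0.0709 by edgeR, without VEH liver 2, 5 or 6 or adenoma 1, 11 or 12. Hist1h1e, encoding H1.4, ranged from 57.8 to 93.3 CPM in adenoma and from 57.8 to 91.9 CPM in VEH liver, with a log2 fold change of 0.03 (95% interval -0.22 to 0.29) that was not called.

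Of the core histone H2A genes, 8 of 14 were tested and 7 rose. Without the 3 admitted through the adenomas, 4 of 5 rose (median log2 fold change 1.20). Hist1h2ak ranged from 0.427 to 4.72 CPM in adenoma (median 1.98 CPM) and from 0.0380 to 0.586 CPM in VEH liver (median 0.322 CPM), with only adenoma 7 inside the liver range. Its log2 fold change of 2.88 (SE 0.46, adjusted p 4.74e-05, edgeR) was the largest of the class, followed by Hist1h2ai at 2.60 (SE 0.63), and both genes passed the filter only with the adenoma libraries. Hist2h2ac, the H2A gene with the highest level per annotated length, rose by 0.39 (SE 0.13, adjusted p 0.0201, edgeR), and 6 of 7 adenomas were above every VEH library. Without VEH liver 2 its adjusted p was 0.0517 (edgeR) and the call was lost. Hist3h2a, at 0.20 (95% interval -0.19 to 0.59), was not called. The 6 H2A genes left out as too low, and Hist3h2ba of H2B, summed to 31 to 200 counts over all libraries. Adenomas held 38.5 to 77.4% of those counts and 25.6% of the counts of all genes. As these sums served to choose the genes, the shares are a description.

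Of 13 tested H2B genes, 11 rose and 1 fell, or 8 and 1 of 10 without those admitted through the adenomas. Hist1h2bn ranged from 1.28 to 9.04 CPM in adenoma (median 4.66 CPM) and from 0.0842 to 0.822 CPM in VEH liver (median 0.312 CPM), so all 7 adenomas were higher than every VEH library. It rose by 3.46 on the log2 scale (edgeR, SE 0.45, adjusted p 7.62e-06). Hist1h2bm, whose promoter letters are shown above, ranged from 0.512 to 7.75 CPM in adenoma (median 3.71 CPM) and from 0.0776 to 0.781 CPM in VEH liver (median 0.337 CPM), and rose by 3.39 (SE 0.53). Hist1h2bb and Hist1h2be rose by 1.75 (SE 0.34) and 1.39 (SE 0.25). The abundant Hist1h2bc moved the other way. It ranged from 58.8 to 83.0 CPM in adenoma (median 70.2 CPM) and from 84.2 to 108 CPM in VEH liver (median 94.8 CPM), with every adenoma below every VEH library, and by edgeR it fell by 0.42 in log2 terms (SE 0.10, adjusted p 0.00217). Hist2h2be was not called at 0.44 (95% interval 0.02 to 0.85, adjusted p 0.0891, edgeR), but was called without TBT liver 8 (adjusted p 0.0482) or adenoma 11 (0.0452).

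Of the 10 H3 genes 9 rose, with a median log2 fold change of 2.22. Without Hist1h3d and Hist1h3g, which passed the filter only with the adenomas, 7 of 8 rose (median 1.91). Hist1h3i ranged from 1.54 to 9.92 CPM in adenoma (median 5.51 CPM) and from 0.684 to 1.29 CPM in VEH liver (median 0.988 CPM). The TBT livers of 10 months had 0.777, 0.649, 0.942, 0.701 and 0.899 CPM. All 7 adenomas were higher than all 11 liver libraries of that age, adenoma 7 included, and the log2 fold change was 2.52 (SE 0.30, adjusted p 3.13e-06, edgeR) against VEH and 2.83 (SE 0.33, adjusted p 5.67e-06, edgeR) against TBT liver. Hist1h3g, admitted in this way, had the largest difference of the class, 3.00 (SE 0.64), at a low level: 0.0854 to 3.65 CPM in adenoma and 0 to 0.508 CPM in VEH liver. Hist1h3e, the highest H3 gene, rose by 0.76 (SE 0.14) from a median of 7.28 CPM in VEH liver to 12.6 CPM in adenoma. Hist1h3a, at 0.78 (95% interval 0.02 to 1.54, adjusted p 0.101, edgeR), was not called, but was without VEH liver 1 (adjusted p 0.0455) or adenoma 7 (0.0114).

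The H4 genes split: 8 of 13 rose, 1 fell and 4 were not called. Hist1h4m ranged from 2.90 to 6.90 CPM in adenoma (median 4.74 CPM) and from 0.798 to 1.18 CPM in VEH liver (median 1.01 CPM), with no overlap, and rose by 2.26 (SE 0.22, adjusted p 4.74e-07, edgeR). It was followed by Hist1h4k at 2.21 (SE 0.28), Hist1h4n at 2.17 (SE 0.30) and Hist1h4j at 2.08 (SE 0.31), none of which overlapped VEH liver. Hist1h4h, the family's first gene per annotated length, ranged from 24.1 to 42.2 CPM in adenoma (median 28.1 CPM) and from 37.0 to 39.9 CPM in VEH liver (median 39.5 CPM). Of the adenomas, 5 were below every VEH library and 1 above, and the gene fell by 0.33 (SE 0.10, adjusted p 0.0118, edgeR). Hist1h4d at 0.12 (95% interval -0.07 to 0.31) and Hist1h4c at -0.15 (95% interval -0.37 to 0.07) were not called, and neither were Hist1h4i at -0.04 (95% interval -0.54 to 0.47) and Hist1h4b at -0.46 (95% interval -1.04 to 0.12).

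Among the 6 genes averaging 20 CPM or more, Hist1h1c was called higher (a call lost without any 1 of the 6 libraries named above), Hist1h2bc and Hist1h4h lower and Hist1h1e, Hist1h4d and Hist1h4c not at all, with a median log2 fold change of -0.06. All 6 tested genes between 5 and 20 CPM rose (median 1.06), and 32 of 37 tested genes under 5 CPM rose (median 2.00). The last set holds all 8 genes admitted through the adenomas, and without them 24 of 29 rose (median 1.63). The sum over the 6 leading genes was 366 ± 54.7 CPM in adenoma and 365 ± 22.7 CPM in VEH liver at 10 months (SD, n = 7 and 6). The sum over the other 50 was 201 ± 73.7 CPM in adenoma and 76.1 ± 13.3 CPM in VEH liver, 2.64 times as high. In bulk tissue, more cells with a transcript and more transcript per cell cannot be told apart.

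**Figure D3:**
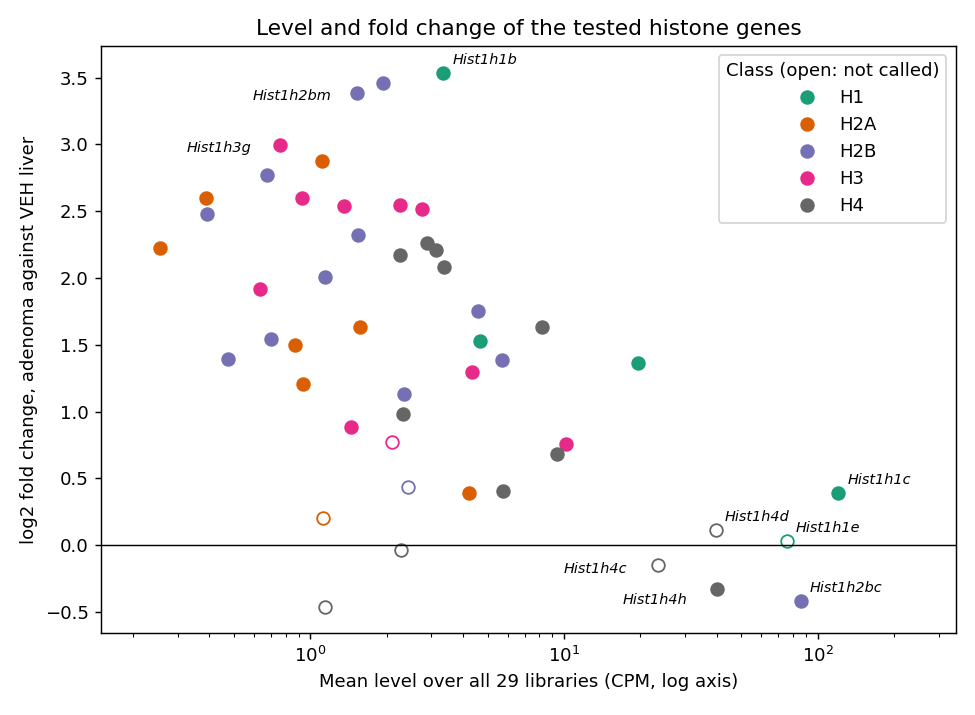
Log2 fold change in adenoma against VEH liver at 10 months (vertical axis) against the mean level over all 29 libraries (CPM, log axis) for the 49 tested histone genes (open, not called). The 6 genes above 20 CPM lie between -0.42 and 0.39, and the largest differences belong to genes under 5 CPM.

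Position and transcript form were compared as descriptions. In the first chromosome 13 block given above, 16 of 17 tested genes were called higher (median log2 fold change 2.48), in the other block 19 of 26 (median 1.33, with 2 lower), and on the other chromosomes 4 of 6 (median 0.42). Of the genes that pass the filter on liver alone, 10 of 11 (median 2.26), 17 of 24 (median 1.25) and 4 of 6 were called higher. Of the tested genes, 16 had an annotated transcript that ended within 100 bases of the stem-loop, and 13 of these were called higher (median 1.88). A further 19 had annotated ends more than 100 bases past it, and 14 of these were called higher (median 0.88). Among the 14 whose annotated transcripts held no such letters, 12 were called higher (median 2.53). On the liver filter these counts were 11 of 14 (median 1.69), 13 of 18 (median 0.82) and 7 of 9 (median 2.21). The last set is defined by the annotation, which may end before the stem-loop, and its genes are not shown to lack the element.

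H2A and H2B genes often start back to back, and 9 such pairs of 176 to 302 bases between starts had both genes in the family. In 6 pairs both genes were tested. In Hist1h2ak and Hist1h2bn the log2 fold changes were 2.88 and 3.46, in Hist1h2bl and Hist1h2ai 2.77 and 2.60, and in Hist1h2ag and Hist1h2bj 2.23 and 2.00. Each of these 3 pairs holds a gene admitted through the adenomas. In the pairs without one, they were 1.502 and 1.13 in Hist1h2ae and Hist1h2bg, and 0.39 and 0.44 in Hist2h2ac and Hist2h2be, of which Hist2h2be was not called. Hist1h2ac and Hist1h2bc, 251 bases apart, went opposite ways: Hist1h2ac rose by 1.20 (SE 0.23) from 0.388 to 0.836 CPM in VEH liver to 0.897 to 2.36 CPM in adenoma, while Hist1h2bc fell.

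Against TBT liver of 10 months, which shares the adenoma libraries with the comparison above, 36 of 49 genes were called higher and 2 lower, the same Hist1h2bc and Hist1h4h (23.9% and 20.8% of all genes tested, 44.7% in all). The median was 1.497. Hist1h2bc fell by 0.28 (SE 0.11, adjusted p 0.0450, edgeR), and this call was lost, with an adjusted p of 0.0516 to 0.147 by edgeR, without VEH liver 1, 2, 4 or 7, TBT liver 8, 9 or 10, or adenoma 1, 3, 5 or 7. Hist1h4h fell by 0.43 (SE 0.11), and 6 of 7 adenomas were below every TBT liver. All 36 were also on the list of 39 against VEH liver, and the 3 not called against TBT liver were Hist1h2bf, Hist2h2ac and Hist4h4. The overlap over all genes was not counted. Among the 36, the call of Hist1h1c was lost in the fits that left out VEH liver 1 (adjusted p 0.0538, edgeR) or VEH liver 2 (adjusted p 0.0545, edgeR). By library, adenomas 1 and 6 exceeded every VEH library for all 39 genes called higher, adenoma 12 for 38, adenomas 3 and 11 for 37, adenoma 5 for 33 and adenoma 7 for 10. The 39 were called on these same libraries, and 8 of them passed the filter only with the adenomas. High counts were thus built in, and the counts only compare the adenomas with each other. Adenoma 7 was the lowest adenoma for 37 of the 39 and adenoma 12 the highest for 33.

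**Figure D4:**
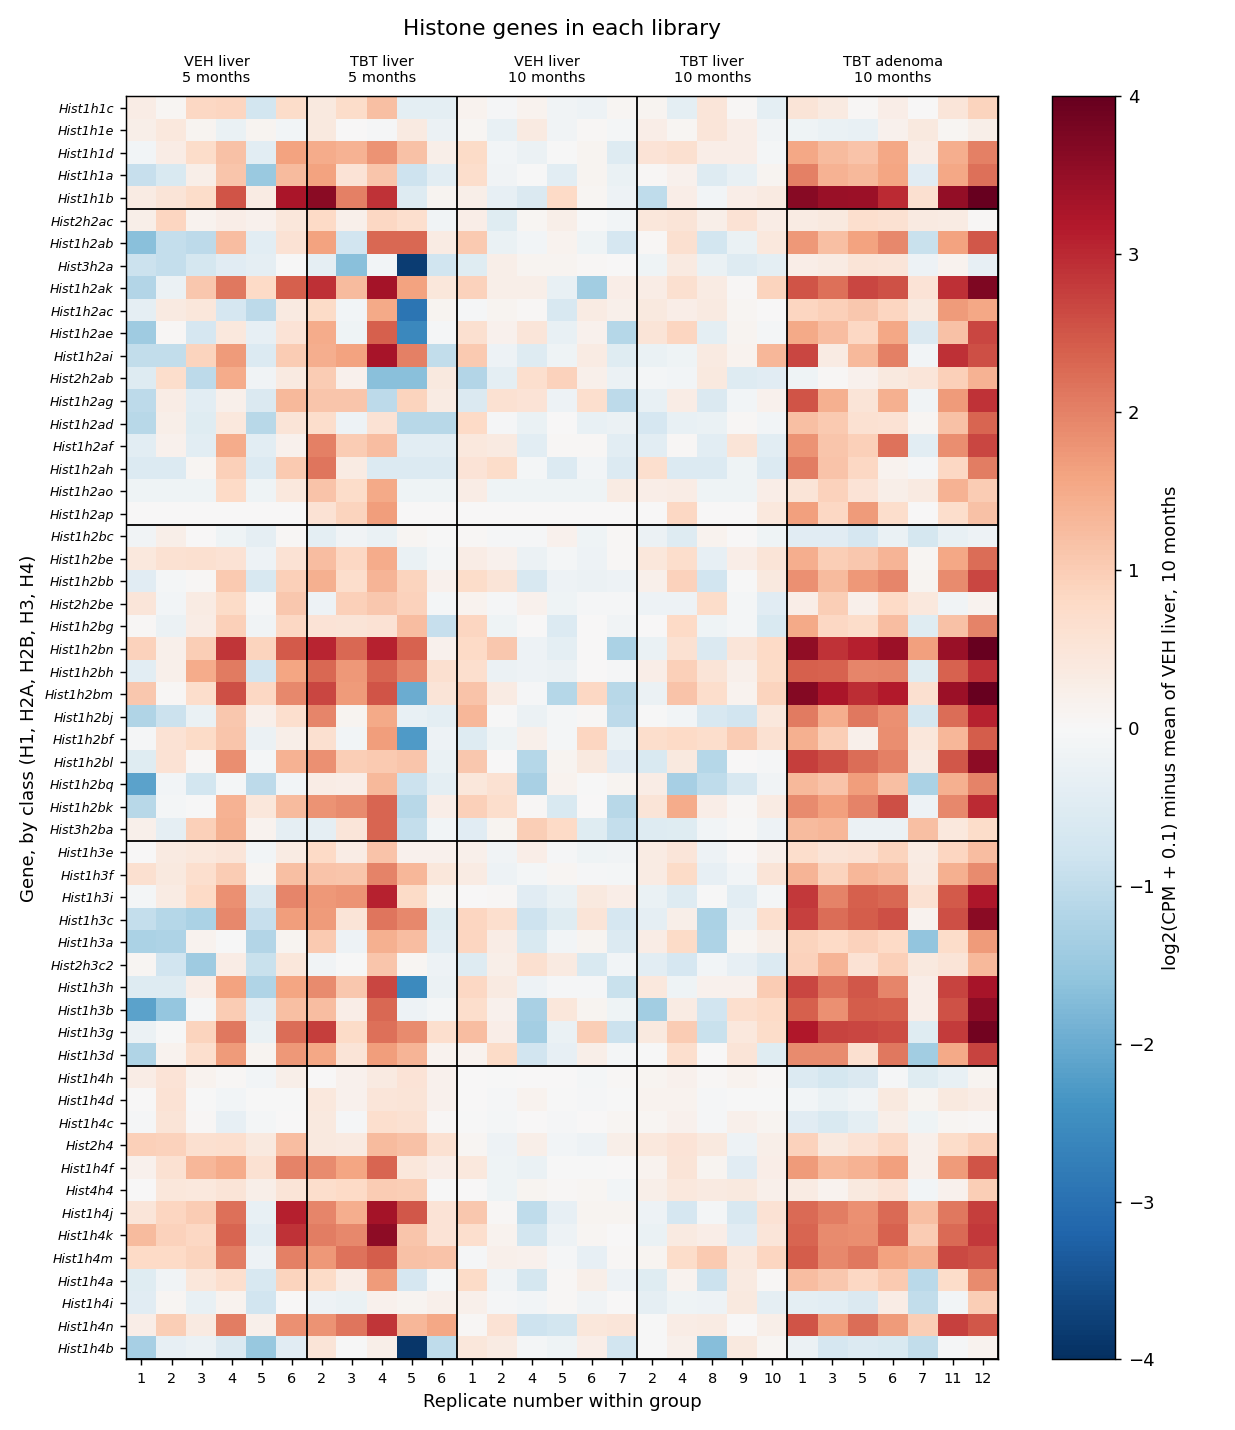
Level of the 56 histone genes (rows, by class and falling mean level) in each library (columns, by group and replicate number), as log2(CPM + 0.1) minus the mean of VEH liver at 10 months. Of the livers of 5 months, VEH 4 and 6 exceed every VEH library of 10 months for 34 and 32 of 48 tested genes and TBT 2 and 4 for 38 and 41. The other livers of 5 months do so for 3 to 27 genes, with TBT 5 at 27 and TBT 3 at 24. VEH 1 of 10 months exceeds the other VEH libraries of its age for 27. The same counts over all genes were not made.

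Genes that act on these mRNAs and proteins were counted in the same comparison, in which 27.9% of all genes were called higher and 24.8% lower. Of 27 genes of histone mRNA transcription and processing, 4 were called higher in adenoma than in VEH liver and 8 lower (median log2 fold change -0.06), and the share lower, 29.6%, was near that over all genes. In the fit of the 4 liver groups, 26 of the 27 passed the filter on low counts. Zfp473, the zinc finger protein of the U7 complex, rose from 0.0839 ± 0.0714 to 0.562 ± 0.238 CPM (SD, n = 6 and 7), which is 2.69 in log2 terms (edgeR, SE 0.49, adjusted p 0.000172). Zfp473 was near the floor in VEH liver, and whether it passes the filter without the adenomas was not examined. Its partners Lsm11 and Lsm10 fell by 0.46 (SE 0.11) and 0.32 (SE 0.11), and Casp8ap2 fell by 0.23 (SE 0.09). Slbp (0.20, 95% interval -0.01 to 0.41) and Npat (0.04, 95% interval -0.14 to 0.23) were not called. Of 23 histone chaperones and importers, 14 were higher and 1 lower (median 0.37). The subunits of chromatin assembly factor 1, Chaf1b and Chaf1a, rose by 2.43 and 1.70, the H3-H4 chaperone Asf1b by 1.38, and Nasp (-0.22, 95% interval -0.43 to -0.002) was not called.

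Among 10 tested replication-independent histone genes, 4 were higher and 3 lower (median 0.03). H3f3b, encoding H3.3, rose by 0.56 (SE 0.08) from 130 ± 7.48 to 191 ± 21.99 CPM, whereas H3f3a, which encodes the same protein, was not called at -0.19 (95% interval -0.34 to -0.03, adjusted p 0.0520, edgeR). H1f0, the linker histone of resting cells, fell by 0.21 (SE 0.09), H2afz was not called at 0.10, and H2afx rose by 0.91 (SE 0.23).

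Cell cycle genes also differed between adenoma and VEH liver. The DNA replication genes summed to 307 CPM in adenoma 7 and to 469 to 619 CPM in the other adenomas. In VEH liver of 10 months they summed to 359 to 456 CPM. Of 43 tested DNA replication genes, 26 were higher and 1 lower (median 0.79), among them the helicase subunit Mcm2 at 1.36, the sliding clamp Pcna at 0.34 and Ccna2 at 3.66, with Ccne2 not called at 0.57. All 24 mitosis genes were higher (median 3.41), with Mki67 at 3.57. In the fit of the 4 liver groups, 42 DNA replication and 23 mitosis genes passed the filter. The counts here were not repeated without genes admitted through the adenomas. Markers of other cells also differed: 6 of 6 bile duct, 5 of 6 T and NK cell and 6 of 8 stellate cell and fibroblast markers were higher (1 lower), 7 of 10 hepatocyte markers and 4 of 6 erythroid markers lower. Of the macrophage markers 3 were higher and 3 lower of 8, of the endothelial markers 2 and 3 of 6, of the intestinal epithelium markers 1 and 1 of 3, and of the B and plasma cell markers 1 and 0 of 5. The summed T and NK markers ranged from 4.48 to 12.9 CPM in adenoma and from 2.58 to 3.79 CPM in VEH liver, and the summed bile duct markers from 150 to 762 and 37.0 to 53.3 CPM. The summed stellate markers ranged from 388 to 685 and 188 to 337 CPM, the erythroid ones from 133 to 306 and 225 to 545 CPM, and the hepatocyte ones from 65092 to 119420 and 115165 to 148674 CPM. The part of these cells in the histone levels was not tested.

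**Figure D5:**
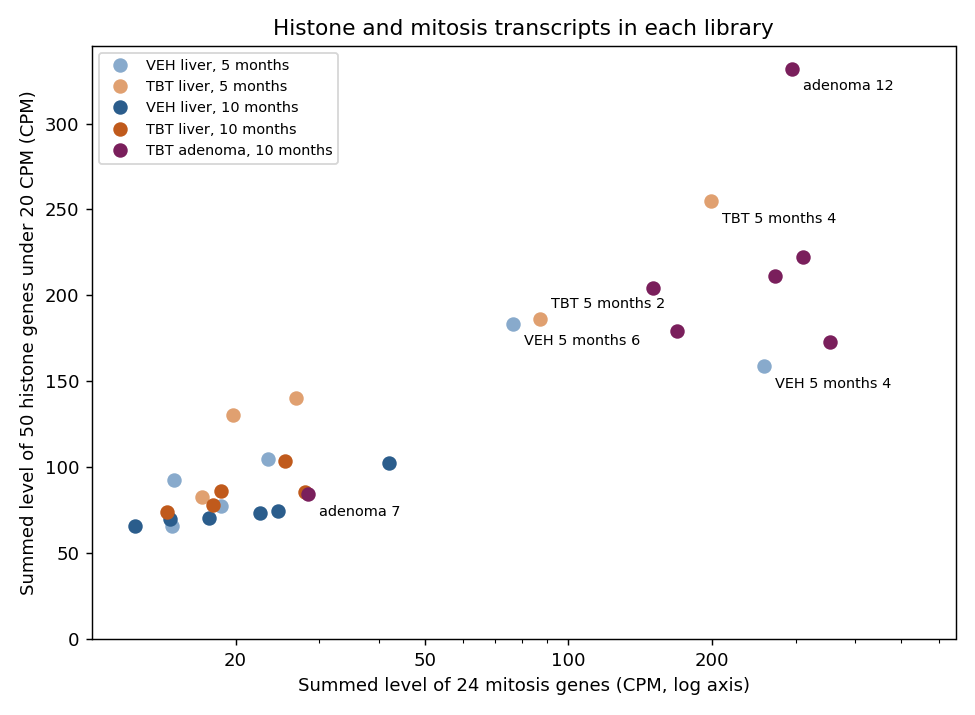
Summed level of the 50 histone genes with a mean under 20 CPM (vertical axis, CPM) against the summed level of 24 mitosis genes (CPM, log axis), with 1 point per library coloured by group. Adenoma 7 lies among the livers of 10 months, and VEH replicates 4 and 6 and TBT replicates 2 and 4 of 5 months lie towards the other adenomas.

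The second question is whether liver of the TBT and VEH labels differed. At 5 months none of 48 tested histone genes was called by edgeR, while 2.03% of all 13055 genes were called, 1.07% higher and 0.957% lower. The log2 fold change was positive for 44 of the 48, with a median of 0.54 against 0.02 over all genes, and 9 had an unadjusted p under 0.05, as did 2102 of all 13055. DESeq2 (43 histone genes with an adjusted p) and limma-voom also called 0, with 10 genes each at an unadjusted p under 0.05. Hist1h3a had the smallest adjusted p, 0.123 (edgeR): the VEH libraries ranged from 0.607 to 1.75 CPM (median 1.11 CPM) and the TBT libraries from 1.18 to 4.46 CPM, with 3 of 5 above every VEH library. The groups overlapped, and the log2 fold change was 1.30 (95% interval 0.45 to 2.15). Of 26 tested processing genes, 1 was called, Srrt (ARS2), which fell by 0.53 (SE 0.12, adjusted p 0.0312, edgeR).

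The spread within the 5-month groups was wide. Summed H3 genes had 12.7 to 30.6 CPM in VEH liver (median 18.5 CPM) and 35.3, 24.5, 54.8, 27.1 and 17.3 CPM in TBT replicates 2, 3, 4, 5 and 6. VEH replicates 4 and 6 and TBT replicates 2 and 4 were the highest of their groups, and their mitosis genes summed to 257, 76.5, 87.4 and 199 CPM. The remaining 7 libraries of that age had 14.7 to 26.8 CPM. TBT replicate 4 was the highest of its group for 36 of the 56 histone genes. TBT replicates 4 and 5 also held the fewest counts of all, 7751823 and 7513448. Erythroid markers summed to 459 to 1350 CPM in TBT and 193 to 1177 CPM in VEH liver of 5 months, and bile duct markers to 25.1 to 357 and 37.4 to 265 CPM. Intestinal epithelium markers reached 1748 CPM in TBT replicate 2, against at most 135 CPM in all other libraries. The part of these cells in the histone levels was not tested. Without VEH 4 and 6 and TBT 4, left out after seeing the data, 3 genes were called higher in TBT liver: Hist1h3c, Hist1h2ab and Hist1h4n at log2 fold changes of 2.55, 2.45 and 1.35. When TBT 2 was left out as well, none was called. Leaving out VEH 2 alone gave 1 call, Hist1h4d at 0.39, and leaving out TBT 6 alone gave 1, Hist4h4 at 0.51.

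At 10 months none of 48 histone genes was called between TBT and VEH liver by edgeR, DESeq2 or limma-voom, and 0% of all genes were. The median log2 fold change was 0.09, and 2 histone genes had an unadjusted p under 0.05 by edgeR, 2 by DESeq2 and 3 by limma-voom. By edgeR, 218 of all 13055 genes did. Hist4h4 had 4.40 ± 0.346 CPM in VEH and 5.55 ± 0.356 CPM in TBT liver (SD, n = 6 and 5), and all 5 TBT libraries were above every VEH library; the log2 fold change was 0.33 (95% interval 0.03 to 0.63, adjusted p 0.9999, edgeR). Hist2h2ac was at 0.40 (95% interval 0.04 to 0.77), with 4 of 5 above.

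The third question is how liver changed between 5 and 10 months. In VEH liver, 9 of 48 histone genes were lower at 10 months and none higher, while 10% of all genes were called lower and 9.11% higher, 19.2% in all (edgeR). The median was -0.47, against -0.04 over all genes. On the liver libraries of 10 months alone, 41 histone genes passed the same filter. Some of the 48 were thus tested through the libraries of 5 months, which favours lower values at 10 months. The genes called between ages, here and in TBT liver, all pass on the 10-month livers alone, and the medians were not repeated on that filter. The H4 genes made up 6 of the 9. Hist2h4 ranged from 8.30 to 14.9 CPM at 5 months (median 11.1 CPM) and from 5.43 to 7.41 CPM at 10 months (median 6.29 CPM), with no overlap, and fell by 0.84 (SE 0.18, adjusted p 0.00253, edgeR). Hist1h4m fell by 1.35 (SE 0.34), Hist1h4f by 1.19 (SE 0.33) and Hist1h4k by 1.74 (SE 0.51). The others were Hist1h4j, Hist1h4n, Hist1h3f, Hist1h2bn and Hist1h1b, at -1.65, -1.15, -0.74, -1.73 and -1.90. The count depended on the libraries used. Without VEH 4 and 6 and TBT 4 of 5 months, left out after seeing the data, it was 1, Hist2h4, at -0.73. It was 3 without VEH replicate 4 of 5 months, replicate 6 of 5 months or replicate 4 of 10 months alone, and 5 without replicate 5, 6 or 7 of 10 months. The part of the mitosis transcripts in these shifts was not tested.

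In TBT liver, 7 of 48 genes were lower at 10 months and none higher, against 1.06% and 0.72% of all genes, 1.78% in all (edgeR). The median was -0.94 against -0.04, with the limit on the 48 genes given above. Hist1h4n had 2.96, 3.77, 6.31, 2.14 and 2.51 CPM in the 5 libraries of 5 months. At 10 months it had 0.777, 0.992, 1.02, 0.793 and 0.932 CPM, below all of those, and it fell by 2.01 (SE 0.42, adjusted p 0.0304, edgeR). Hist1h3i had 3.46, 3.60, 8.92, 1.71 and 1.02 CPM at 5 months, all above its 10-month values given earlier, and fell by 2.27 (SE 0.52, adjusted p 0.0390, edgeR). Hist1h4j, Hist1h4f, Hist1h4k, Hist1h3f and Hist1h2bn were at -2.50, -1.42, -2.24, -1.05 and -2.42, with adjusted p-values of 0.0423 to 0.0495 by edgeR. Of the called genes, 6 were on both age lists, 6 of the 9 in VEH and 6 of the 7 in TBT liver. Both lists come from the same fit, and the overlap over all genes was not counted, so this is a description only.

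Other lists moved over the same ages. In TBT liver, all 23 tested mitosis genes had negative log2 fold changes (median -1.87, none called, with 13 at an unadjusted p under 0.05). All 6 bile duct markers (median -2.53, with Krt19 and Epcam called lower), all 7 erythroid markers (median -2.27, none called) and all 8 stellate markers (median -0.92, with Des called lower) were negative as well. In VEH liver the negative counts were 23 of 23 mitosis genes (median -1.60, 2 called), 6 of 6 bile duct markers (median -1.21, none called), 6 of 7 erythroid markers (median -0.66, none called) and 7 of 8 stellate markers (median -0.79, Des called). Bile duct markers summed to 25.1 to 357 CPM at 5 and 35.9 to 58.8 CPM at 10 months in TBT liver, and erythroid markers to 459 to 1350 and 142 to 361 CPM. Their part in the histone levels was not tested.

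The count in TBT liver rested on single libraries. It was 0 without replicate 4 of 5 months or without any 1 of the 5 TBT libraries of 10 months (2, 4, 8, 9 and 10), and 14 without replicate 6 of 5 months. It was 3 without replicate 2 or 3 of 5 months. Leaving out single VEH libraries, which enter through the shared estimate of spread, gave 1 (10 months, 1 or 6), 2 (10 months, 2, 5 or 7), 3 (5 months, 3; 10 months, 4) and 4 (5 months, 1 or 4). Without VEH 4 and 6 and TBT 2 and 4 of 5 months it was 1, Hist1h4n at -1.67. The difference between the age changes of TBT and VEH liver was tested as an interaction. None of 48 histone genes and 0% of all 13055 genes were called by edgeR. An unadjusted p under 0.05 by edgeR was found for 1139 of all genes and 2 histone genes (Hist1h2bq and Hist1h2ab), and the histone median was -0.43. DESeq2, which gave 40 of the 48 an adjusted p, called none, with 4 at an unadjusted p under 0.05, and limma-voom none, with 1.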

How the data were processed

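RNA from frozen liver or adenoma was sequenced from stranded total RNA libraries, per the labels' protocols. The authors deposited raw counts per gene for 29 libraries. Reads were checked with FastQC, trimmed with Trim Galore, aligned with HISAT2 to mm10 and counted with featureCounts, and edgeR was used, per the submitters' processing notes; versions, the annotation, the strand setting and the treatment of reads with several alignments are not stated in the labels or notes used here. No column of the table lacked a sample.

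The histone genes, gene lists and named genes were chosen with earlier results of these data known. CPM values use trimmed-mean (TMM) factors over all libraries. Genes were tested with edgeR 4.0.16 (R 4.3.3; filterByExpr with a minimum count of 10, robust quasi-likelihood fit, Benjamini-Hochberg over all genes, threshold 0.05), in a fit of the 4 liver groups and a fit of the 3 groups of 10 months. Intervals of 95% come from standard errors. Alternatives were DESeq2 1.42.0, limma-voom 3.58.1, median-of-ratios scaling, no filter, a stricter filter (1 CPM in 5 libraries), other sets of groups, a replicate block and leaving out libraries. Named genes were the 3 highest and 2 most changed of each class, those called between livers and those not called in adenoma, plus set regulators and the genes nearest the count threshold; other genes (head-to-head pairs, calls made without a library) were named after their values were seen. The 71 pairs of libraries within groups held no identical ones, and the smallest chi-square per degree of freedom was 17.6. The scripts were tested on simulated data.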

Additional observations from a re-analysis of the deposited data

Results flagged for a closer look

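Over 198 groups of 5 to 7 libraries (class sums and named histone genes), 15 (7.58%) held a library far from the others of its group by Dixon's test, where chance gives about 1 in 20. VEH liver replicate 1 of 10 months stood apart for 5 genes: high for Hist1h1d (18.0 CPM, next 11.4), Hist1h2ab (1.76 CPM, next 0.892), Hist1h4f (5.23 CPM, next 3.92) and Hist1h4j (2.42 CPM, next 1.18), and low for Hist3h2a (0.898 CPM, next 1.31). Its summed mitosis genes, 42.0 CPM, were the highest of its group. VEH liver replicate 2 of 5 months was high for Hist2h2ac (6.02 CPM, next 4.51), Hist1h4d (55.1 CPM, next 37.3) and Hist1h4c (32.0 CPM, next 23.1).

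The other flags were single. High values were Hist1h4d in VEH replicate 4 of 10 months (40.1 CPM, next 36.6), Hist1h4k in TBT replicate 4 of 5 months (12.8 CPM, next 4.40), Hist1h3b in adenoma 12 (5.17 CPM, next 2.46) and, in TBT liver of 10 months, Hist1h2ai in replicate 10 (0.400 CPM, next 0.157), Hist2h2be in replicate 8 (3.22 CPM, next 1.80) and Hist1h4i in replicate 9 (3.14 CPM, next 2.10). Hist1h2be was low in VEH replicate 5 of 5 months (2.99 CPM, next 4.67). What sets these libraries apart was not tested.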

How the results depend on the processing

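Against VEH liver, 36 to 42 histone genes were called higher in adenoma and 2 lower when 1 library was left out, and 31 to 44 higher under the other settings. Against TBT liver, 32 to 38 were higher and 1 to 3 lower without 1 library. The count of 2 lower was 1 with median-of-ratios scaling, the stricter filter, limma-voom, all 5 groups in one fit or the 2 groups alone. For the replicate block, the numbers pair the libraries only by name: correlations of deviations ran from -0.53 to 0.69, 11 of 31 over 0.1. With it, 31 genes were higher than in VEH liver, 0 higher and 0 lower than in TBT liver (which shares no numbers with adenoma), 1 changed with age in VEH and 0 in TBT liver. The age count in VEH liver was 3 to 11 without 1 library, 5 with no filter, 4 with limma-voom and 1 without VEH 4 and 6 and TBT 4 (or also TBT 2). In TBT liver it was 0 to 14 without 1 library, 3 with no filter, 13 with DESeq2, 1 with limma-voom, 0 with the 2 groups alone and 1 without the 4 libraries. Between TBT and VEH liver at 5 months it was 0 to 1 without 1 library and 3 without VEH 4 and 6 and TBT 4. The cause of these shifts was not tested.

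Of 2231 values of single genes or class ratios, 1926 kept direction and side of the threshold, 280 lost the call, 8 gained one and 17 changed sign, all of them uncalled. Against TBT liver, Hist2h2ac was 0.00403 with the stricter filter and -0.0615 to 0.0515 without 1 library. Hist1h4i was -0.0142 with limma-voom, -0.254 with the replicate block and -0.193 to 0.246 without 1 library. With the block, Hist1h4d was -0.0122 and Hist1h3a -0.412. Against VEH liver without 1 library, Hist1h4i was -0.313 to 0.0771 and Hist1h1e -0.0315 to 0.118.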

Other observations

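Outside the testable genes, Hist1h1t, the testis form of H1, summed to 25 counts over all 29 libraries, and the testis forms Hist1h2ba and Hist1h2aa to 2 and 0. Hist1h2ap, the least counted gene kept, was at 0 in all 6 VEH livers of 10 months, and 77.4% of its 31 counts were in adenomas. Adenomas held 25.6% of the counts of all genes. As the adenoma counts brought Hist1h2ap over the threshold, its share is a description only.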
